A study of Mus musculus with 30 samples.

Results

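Arid2 loss in mouse thyroid tumours driven by Braf(V600E) was examined in animals given vehicle. The comparison was set by the labels: 2 libraries of thyroid labelled Braf(V600E) with Arid2 knockout (replicates 2 and 4) were set against 3 libraries of Braf(V600E) thyroid with no SWI/SNF knockout (replicates 2, 4 and 5). These were 5 of the 28 libraries of the series, and 19016 of 33924 genes had enough counts to be tested. Both groups carry Braf(V600E), both received vehicle for 8 days, and the mice were killed about 2 h after the last dose. The other groups used here for context were Braf(V600E) with Arid1a knockout and with Smarcb1 knockout under vehicle, the Braf(V600E) and Arid2-knockout groups given CH5126766 (abbreviated CKI, the MEK inhibitor named in the series design) on the same schedule, and untreated wild-type and Arid1a-knockout thyroid. The question, as the series states it, is what loss of a SWI/SNF subunit does to a Braf-driven thyroid tumour. The labels do not name the Cre driver, the deleted exons or the age of the animals, nor do they say that each library is a separate animal, so p-values measure only the spread between libraries.

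SWI/SNF complexes use an ATPase subunit, Smarca4 or Smarca2, to move nucleosomes and so open or close regulatory DNA. They occur in several forms. The form called BAF carries Arid1a or Arid1b, and the form called PBAF carries Arid2 with Pbrm1, Brd7 and Phf10, while Smarcb1 and Smarcc1 are shared by both. Follicular cells of the thyroid make hormone through genes such as Tg and the iodide symporter Slc5a5, and mutant Braf keeps the MAPK pathway on and represses these genes. CKI blocks that pathway at MEK.

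The 5 libraries held 27164168 to 28944421 counts, with scaling factors from 0.723 to 0.993. Pax8, the follicular transcription factor, stood at 204, 221 and 196 CPM (counts scaled to library size by TMM) in Braf replicates 2, 4 and 5 and at 306 and 239 CPM in Arid2-knockout replicates 2 and 4, so the tissue label was met in all 5. Values are given in that order of libraries throughout. The labels carry 2 preparation texts, whole thyroid frozen for wild-type, Arid2 and Smarcb1 mice and sorted YFP+ cells, on every sample. Whether the preparation differed between the groups compared here is not said, and if it did it cannot be told apart from genotype. Transcripts linked to sex also divided the libraries. Braf replicate 2 had Y-linked transcripts and Xist at 0.102 CPM, Braf replicate 4 and Arid2-knockout replicate 2 had Xist alone (315 and 195 CPM), and Braf replicate 5 and Arid2-knockout replicate 4 had both (Xist 116 and 88.5 CPM, Ddx3y 33.1 and 42.4 CPM). In bulk RNA, fewer cells of a type and less RNA per cell cannot be told apart.

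Arid2 itself did not check the labels. Its whole-gene level was 7.03, 16.8 and 19.7 CPM in the Braf libraries and 37.5 and 15.5 CPM in the libraries labelled Arid2 knockout. The groups overlapped (log2 fold change 0.87, SE 0.39, edgeR adjusted p = 0.189). Counts over a whole gene include exons outside a deletion, and which exons were deleted is not given in the sources used here, so this value speaks neither for nor against the label. All directions below are for libraries as labelled.

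In the fit across the 28 libraries, 686 of 19016 genes (3.61%) passed the quasi-likelihood test of edgeR at an adjusted p under 0.05 and are called changed. Of these, 443 (2.33%) were higher and 243 (1.28%) were lower in the Arid2-knockout libraries. The number of calls rested on few libraries. It was 364 without Braf replicate 2, 54 without Braf replicate 4, 38 without Arid2-knockout replicate 2 and 101 without Arid2-knockout replicate 4, against 873 without Braf replicate 5. With only the 5 libraries in the fit it was 2. Levels in the 2 groups did not overlap for 6614 genes (34.8%), 3634 (19.1%) with Arid2 knockout higher and 2980 (15.7%) with it lower, which is the background for every count of that kind below.

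**Figure D1:**
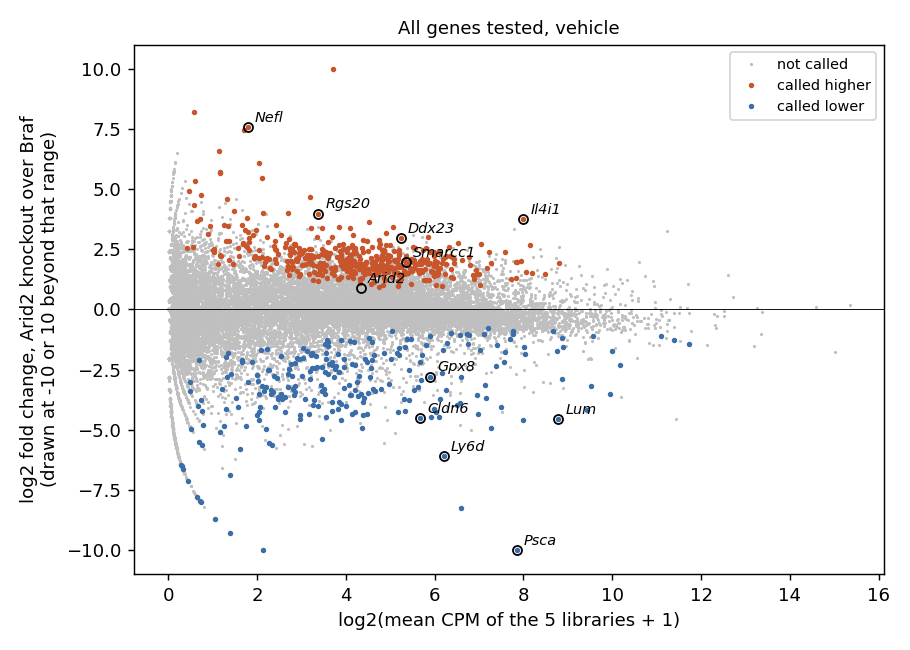
Each point is 1 of the 19016 genes tested, with its mean level in the 5 vehicle libraries on the x axis (log2 of mean CPM + 1) and the log2 fold change of Arid2 knockout over Braf on the y axis. Called genes are coloured, 443 higher and 243 lower. Psca, drawn at the lower edge, lies beyond the axis at -12.62, and Arid2 lies among the genes not called.

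Only 16 genes, 10 higher and 6 lower, stayed called when each of the 5 libraries was left out in turn. They were picked out after their values were seen, and they are described first because no single library decides them. Among the 6 that fell, Cldn6 and Gpx8 had the smallest p-values of all genes tested, and both fell in the CKI-treated libraries too. Their promoters from RefSeq (GRCm38.p6, a later build than the mm9 of the counts), 250 bases before to 50 after the gene start, are shown for that reason. That of Cldn6 lies at chr17:23679115-23679414 on the plus strand, with a cyclic AMP response element (CRE, TGACGTCA) in capitals starting 40 bases before the gene start (position -40). That of Gpx8 lies at chr13:113046339-113046638 on the minus strand, with a match on the opposite strand to the ETS motif CCGGAAG in capitals, at position -73.
Cldn6: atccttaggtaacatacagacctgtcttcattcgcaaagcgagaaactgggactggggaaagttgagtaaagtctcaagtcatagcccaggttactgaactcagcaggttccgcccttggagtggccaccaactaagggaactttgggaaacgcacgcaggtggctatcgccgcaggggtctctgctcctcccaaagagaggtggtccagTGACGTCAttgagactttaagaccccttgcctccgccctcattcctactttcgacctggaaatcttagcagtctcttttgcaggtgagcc
Gpx8: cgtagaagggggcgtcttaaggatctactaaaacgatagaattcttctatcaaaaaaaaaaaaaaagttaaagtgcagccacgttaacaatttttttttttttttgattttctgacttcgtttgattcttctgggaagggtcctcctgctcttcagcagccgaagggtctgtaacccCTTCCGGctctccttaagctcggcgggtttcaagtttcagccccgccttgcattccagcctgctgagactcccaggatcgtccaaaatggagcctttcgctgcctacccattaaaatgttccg
Neither window held the AP-1 motif TGANTCA on either strand, and the Cldn6 window held no ETS match. Of 32851 RefSeq mouse promoters of this length, 1.79% held the CRE, 8.86% the ETS motif and 7.81% the AP-1 motif. The CRE was searched for after the sequences had been read. A match describes letters in the sequence and is not evidence of a site in use.

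Cldn6, a tight junction claudin best known from embryonic epithelia, stood at 103, 49.4 and 91.9 CPM in the Braf libraries and at 3.32 and 3.78 CPM in the Arid2-knockout libraries. It fell by 4.52 on the log2 scale (SE 0.46, adjusted p = 2.02e-05), and the largest adjusted p with 1 library left out was 0.00612. Gpx8, a glutathione peroxidase family member of the endoplasmic reticulum, went from 89.3, 99.2 and 78.3 CPM to 12.0 and 13.8 CPM (log2 fold change -2.79, SE 0.31, adjusted p = 7.19e-05). In both genes every Arid2-knockout library was far below every Braf library. With only the 5 libraries in the fit the same differences had adjusted p = 0.0638 for Cldn6 and 0.0808 for Gpx8, so neither was called.

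Oas1a, an interferon-induced oligoadenylate synthetase, was at 34.8, 22.0 and 28.5 CPM in the Braf libraries and at 4.45 and 4.01 CPM with Arid2 knockout (log2 fold change -2.75, SE 0.36, adjusted p = 0.000344). Pm20d1, a secreted enzyme that joins fatty acids to amino acids, was at 24.3, 41.2 and 21.2 CPM against 2.92 and 1.89 CPM (log2 fold change -3.59, SE 0.46, adjusted p = 0.000344). Gm9000, a predicted gene, showed the widest separation of the 6, with 273, 90.8 and 116 CPM against 0.474 and 0.578 CPM (log2 fold change -8.24, SE 1.04, adjusted p = 0.000344). Reads of a predicted gene can be shared with a similar copy, so its level is uncertain. Gm6768, also a predicted gene, fell by 2.77 on the log2 scale.

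Among the 10 that rose, Ddx23, an RNA helicase of the spliceosome, was at 3.51, 14.6 and 11.4 CPM in the Braf libraries and at 87.0 and 66.5 CPM with Arid2 knockout (log2 fold change 2.96, SE 0.42, adjusted p = 0.00119). Ddx23 is a neighbour of Arid2 on chromosome 15, 24 steps away in the RefSeq order of tested genes. It was the only called gene of the 50 nearest to Arid2 (25 on each side). Over all genes tested 3.61% were called, so nothing is read from that count. Rgs20, a regulator of G protein signalling, went from 1.02, 1.23 and 1.85 CPM to 24.6 and 18.5 CPM (log2 fold change 3.97, SE 0.65, adjusted p = 0.00373). For both genes the lowest Arid2-knockout library was above the highest Braf library by several fold.

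Il4i1, a secreted L-amino acid oxidase, rose from 38.9, 29.0 and 59.5 CPM to 430 and 710 CPM (log2 fold change 3.75, SE 0.61, adjusted p = 0.00373). Ppap2b, a lipid phosphate phosphatase, rose from 32.2, 97.5 and 138 CPM to 569 and 580 CPM (log2 fold change 2.69, SE 0.48, adjusted p = 0.00625). H2afy2, which encodes the histone variant macroH2A2, rose from 3.06, 2.93 and 5.97 CPM to 19.7 and 19.3 CPM (log2 fold change 2.29, SE 0.39). The other rises of the 16 were the kinase gene Stk38 (1.83), Dcaf17 (1.74), the neurofilament gene Nefl and the unnamed genes 1190005F20Rik (2.04) and 9030625A04Rik (2.85), all as log2 fold changes.

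**Figure D2:**
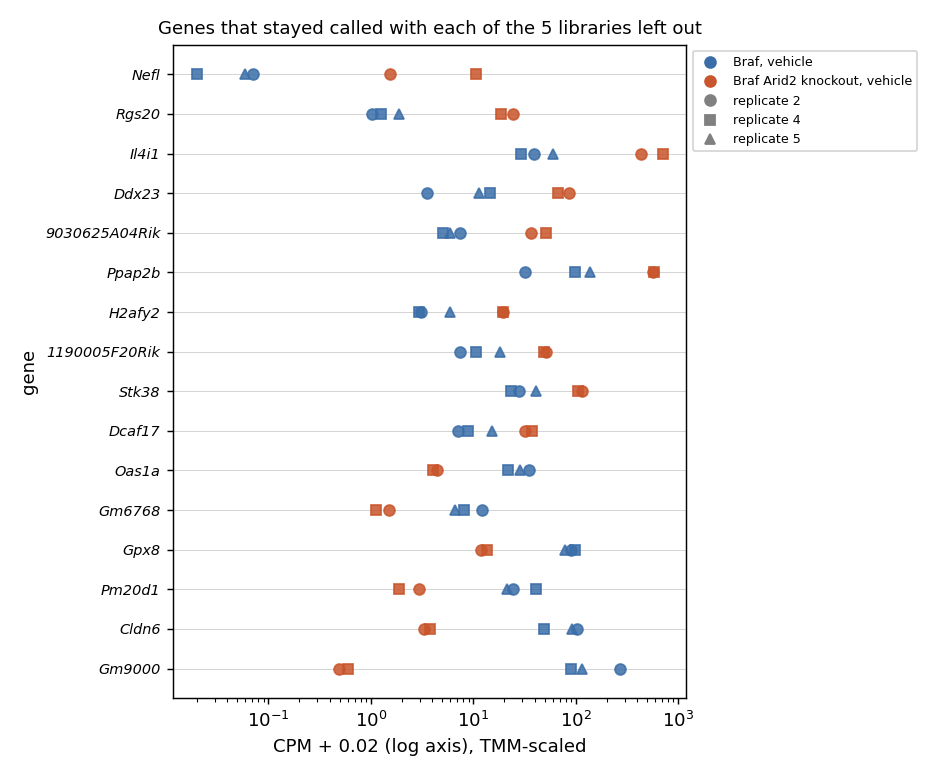
Each row is 1 of the 16 genes that stayed called with each of the 5 libraries left out, and each point is a library (x axis, CPM + 0.02 on a log axis). Blue is Braf and orange is Braf with Arid2 knockout, and circles, squares and triangles are replicates 2, 4 and 5. No gene has overlapping groups, from Gm9000 at the bottom (90.8 to 273 against 0.474 and 0.578 CPM) to Nefl at the top.

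For 5 of these 16 genes the 4 Arid2-knockout libraries, vehicle and CKI together, lay outside all 24 other libraries of the series. It held for 29 of the 686 genes called (4.23%) and for 51 of all 19016 genes (0.268%). The 16 genes were chosen partly on the same libraries, so these shares are a description and nothing is read from them. Ddx23 was at 66.5 to 87.0 CPM in the 4 libraries and at 3.51 to 16.1 CPM in the 24 others. Gm9000 was at 0.474 to 0.827 against 12.9 to 273 CPM. Gpx8 (12.0 to 17.2 against 33.2 to 187 CPM), Oas1a (4.01 to 5.59 against 8.08 to 119 CPM) and Pm20d1 (1.10 to 2.92 against 3.19 to 83.7 CPM) were lower than everywhere else. Cldn6 was not among the 5, since it was as low in other groups: its lowest library outside the Arid2-knockout groups had 1.19 CPM.

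By the rule used to name genes (the largest called changes without overlap and with the higher group averaging 5 CPM or more), the steepest rises were those of Nefl, Jph3 and Nrsn1. Nefl, the neurofilament light chain, had 2 counts in all over the 3 Braf libraries and 1.53 and 10.7 CPM with Arid2 knockout, a 218-fold ratio with an exact 95% interval of 59.8 to 1807 that covers counting error only. Jph3, a junctophilin of neurons, also had 2 counts over the Braf libraries and 6.70 and 4.58 CPM with Arid2 knockout (206-fold, 56.6 to 1712). Nrsn1, a vesicle protein of neurons, was at 0, 0 and 0.314 CPM against 5.87 and 9.48 CPM (log2 fold change 6.09, SE 1.14, adjusted p = 0.00917). These 3 genes were close to absent in all Braf libraries and low but present in both Arid2-knockout libraries.

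Trim9, a brain-enriched ubiquitin ligase, rose from 0.968, 0.687 and 0.629 CPM to 27.8 and 10.9 CPM (log2 fold change 4.67). Aplp1, an amyloid precursor-like protein, rose by 4.02 and Phyhipl by 3.80 on the log2 scale. Ifi202b, an interferon-inducible p200 family gene, rose from 4.79, 0.542 and 6.64 CPM to 69.5 and 28.0 CPM (3.61), and Mmp28, the matrix metalloproteinase epilysin, rose by 3.51. Of the 13 tested genes on a list of neuronal genes only 2 were called, Nefl and Stmn2, a microtubule regulator that went from 19.2, 18.4 and 47.7 CPM to 144 and 87.1 CPM (log2 fold change 2.02, adjusted p = 0.027). In that list 8 genes had a positive and 5 a negative log2 fold change, with a median of 0.47, against -0.04 over all genes tested.

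The largest fall was that of Psca, a cell surface protein of the Ly6 family, from 635, 202 and 310 CPM to 0.0364 and 0.077 CPM. Only 3 counts remained in the 2 Arid2-knockout libraries, a ratio of 6355 with a counting interval of 2174 to 30818 (edgeR adjusted p = 0.00681). The call needs both Arid2-knockout libraries: adjusted p was 0.13 without replicate 2 and 0.0661 without replicate 4, although the direction stayed. Psca was 1 of the 2 genes called with only the 5 libraries in the fit.

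Ly6d, another Ly6 family gene close to Psca, fell from 170, 59.8 and 131 CPM to 2.26 and 1.23 CPM (log2 fold change -6.10, SE 1.39, adjusted p = 0.0248). Of the 50 tested genes nearest Psca, 3 were called: Ly6d, Ly6e (log2 fold change -1.42) and Dennd3 (2.00, the other direction). Beside the 3.61% called over all genes tested, nothing is read from this count. The largest falls also included Elf5, an ETS factor of secretory epithelia (11.6, 16.2 and 5.46 CPM against 0.146 and 0.809 CPM, log2 fold change -4.53), and Qrfpr, a neuropeptide receptor (23.5, 9.40 and 16.9 CPM against 0.255 and 0.539 CPM, -5.37). Apoc1, an apolipoprotein gene, fell by 4.92, and the flavin monooxygenase gene Fmo2 and the complement protease gene Masp1 each fell by 4.58 on the log2 scale.

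Lum, Aspn and C1qtnf3, also among the 10 falls that the rule names, were highest in Braf replicate 4, as was Elf5 above. Lum, a small proteoglycan of collagen fibrils, was at 107, 1485 and 550 CPM in the Braf libraries and at 22.3 and 38.6 CPM with Arid2 knockout (log2 fold change of -4.55 with an adjusted p of 0.0257). Aspn, a related proteoglycan, was at 33.7, 865 and 326 CPM against 10.9 and 23.1 CPM (-4.58), and C1qtnf3, a secreted C1q family protein, was at 10.8, 631 and 112 CPM against 5.98 and 10.6 CPM (-4.92). In all 3 genes Braf replicate 2 came close to the Arid2-knockout libraries.

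The list of 10 fibroblast markers moved in the same way, all 10 with a negative log2 fold change and a median of -3.56. Of these, 5 were called lower (Lum, Dpt, Postn, Dcn and Fap) and none higher. Their mean level, as log2(CPM + 1), was 5.56, 9.52 and 7.82 in the Braf libraries and 5.04 and 4.54 with Arid2 knockout, and their summed level was 1136, 24193 and 5912 CPM against 855 and 426 CPM. No marker was at 0 counts in any of the 5 libraries. Without Braf replicate 4 the median was -2.23. A fit with the fibroblast level as a covariate was added after seeing the data. That level is the mean of these same 10 markers, so the fit itself draws their median toward 0. Nothing is read from the median of -0.28 found there. In that fit the number of genes called fell to 78 and C1qtnf3 turned to 0.55 (edgeR adjusted p = 0.765). How far fibroblast content makes up the falls in these genes cannot be told apart from genotype here.

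Other stromal and blood cell markers were lower as well, mostly without passing the test. Of 10 endothelial markers 1 was called, Vwf, lower with overlapping libraries, and their level was 2.10, 5.90 and 4.84 against 3.11 and 2.81 on the log2 scale. All 7 leukocyte markers had negative log2 fold changes (median -1.07) and none was called, with levels of 6.71, 7.33 and 6.88 against 5.98 and 5.84. The 11 macrophage markers behaved likewise (median -1.35, none called, 10 without overlap), for example the lysozyme gene Lyz2 at 2690, 2868 and 2200 CPM against 806 and 1069 CPM (adjusted p = 0.287). Among other lists, Tagln of 8 smooth muscle and pericyte markers, Fabp4 of 5 adipocyte markers, and Pmp22 among the Schwann cell markers were called lower. The 2 Arid2-knockout libraries were thus the lowest of the 5 in leukocyte and macrophage level but not in endothelial level. Low stromal levels were not particular to Arid2 knockout. With vehicle, the fibroblast level was 4.21 to 5.21 with Arid1a knockout and 5.34 to 6.15 with Smarcb1 knockout. The endothelial level was 2.11 to 2.55 and 2.37 to 3.22, and the leukocyte level 5.68 to 6.94 and 3.93 to 5.76, in the same order.

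**Figure D3:**
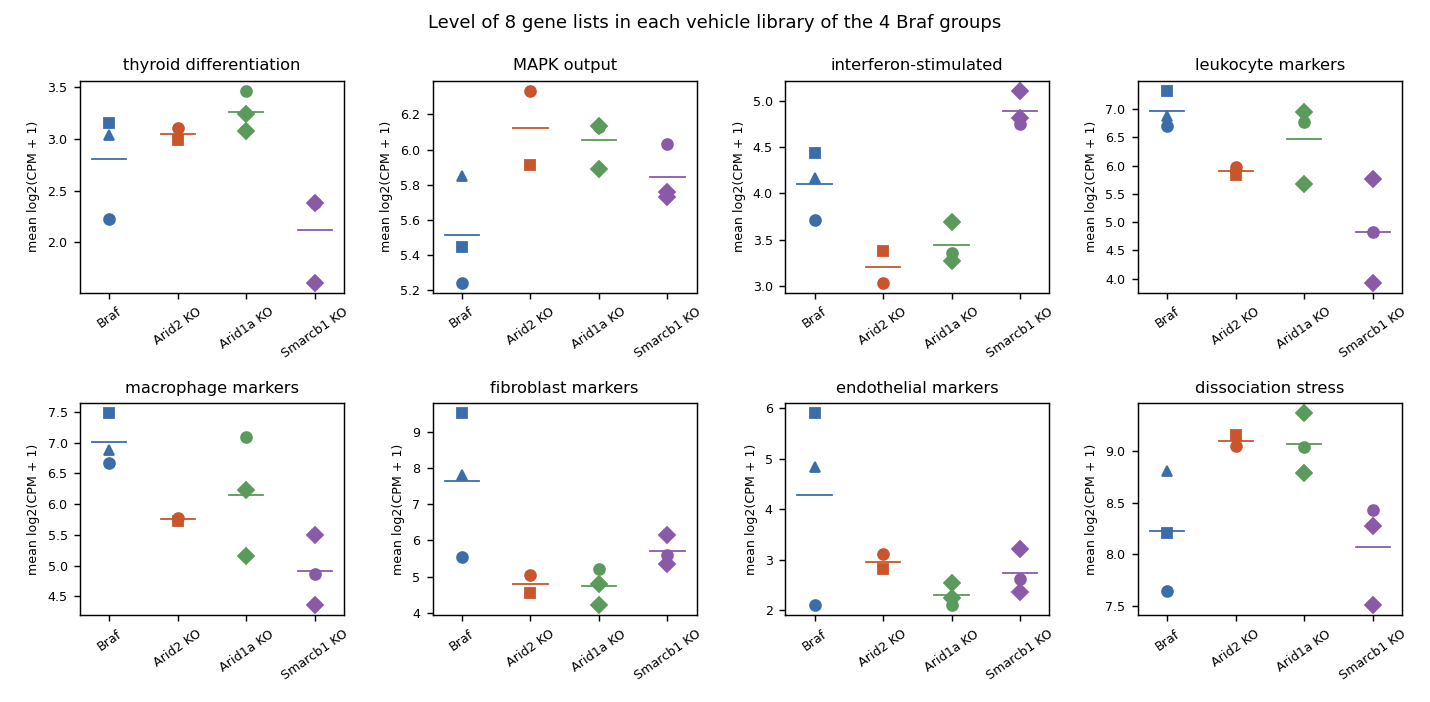
Each panel is a gene list, each point a vehicle library (y axis, mean log2(CPM + 1) of the members) and each line a group mean, for Braf alone and Braf with Arid2, Arid1a or Smarcb1 knockout. Circles, squares and triangles are replicates 2, 4 and 5 and diamonds are other replicates. The fibroblast panel shows Braf replicates from 5.56 to 9.52, with Arid2 knockout at 5.04 and 4.54.

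Interferon-stimulated genes were lower beside these markers. Of 20 tested, 3 were called lower and none higher, 19 had a negative log2 fold change and 13 were lower without overlap (median -1.08). The list level with vehicle was 3.03 and 3.37 with Arid2 knockout, 3.27 to 3.69 with Arid1a knockout and 4.75 to 5.11 with Smarcb1 knockout. A low level was thus not particular to Arid2 knockout. Under CKI the median for Arid2 knockout over Braf was -0.0055. Isg15, a ubiquitin-like protein induced by interferon, went from 15.1, 14.3 and 17.3 CPM to 3.21 and 4.24 CPM (log2 fold change -2.06, SE 0.44, adjusted p = 0.0208). Ifit1 fell by 2.07 and Rsad2, the antiviral viperin gene, fell by 2.01 on the log2 scale. Isg15 was alike in the 3 Braf libraries, but the level of the whole list there was 3.72, 4.44 and 4.16. It was highest in replicate 4, as was the fibroblast level. None of the 3 called genes stayed called without that replicate or with the fibroblast level as a covariate. The lower leukocyte level moves with the same groups. In the fit with that level as a covariate, which called 100 genes in all, none of these 3 genes was called. The part of leukocytes in these changes cannot be told apart from genotype here. Chemokine genes had a median of -1.09 over 16 tested with none called.

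No SWI/SNF subunit gene was called lower. Of the 17 tested subunits shared between forms or not tied to one, 15 had a positive log2 fold change, 8 were higher without overlap and 1 was called. That gene, Smarcc1, the core subunit BAF155, was at 11.5, 15.7 and 28.1 CPM in the Braf libraries and at 85.9 and 58.7 CPM with Arid2 knockout (log2 fold change 1.97, SE 0.47, adjusted p = 0.0268). The ATPase gene Smarca4 was at 55.4, 100 and 128 CPM against 261 and 138 CPM (1.08, adjusted p = 0.137). Pbrm1, which shares PBAF with Arid2, was at 49.96, 70.6 and 60.9 CPM against 112 and 96.0 CPM (0.78, adjusted p = 0.111), while Brd7 and Phf10 lay near 0 (-0.04 and 0.08). None of the 4 PBAF-specific or 6 BAF-specific genes was called, Arid1a at 11.6, 30.8 and 22.9 CPM against 43.3 and 12.3 CPM among them (0.35, adjusted p = 0.703).

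Of 16 thyroid differentiation genes tested, 1 was called and the median log2 fold change was 0.22. Dio2, the deiodinase that activates thyroid hormone, was the called gene, lower with Arid2 knockout at 0.0729 and 0.077 CPM against 0.204, 4.85 and 1.81 CPM (log2 fold change -4.86, adjusted p = 0.0248), all low levels. Dio2 was highest in Braf replicate 4, and its call was lost without that library and with the fibroblast level as a covariate. Thyroglobulin, Tg, was at 161, 893 and 196 CPM against 400 and 681 CPM (0.37, adjusted p = 0.806). Among 10 accessory genes of hormone synthesis and transport none was called (median 1.13). Hhex, a transcription factor of thyroid development, was at 51.0, 58.7 and 61.9 CPM against 172 and 234 CPM (1.83, adjusted p = 0.0971), without overlap but short of the threshold.

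Of 20 genes that report MAPK output, 1 was called and it was higher. Phlda1, an early target of ERK, went from 19.6, 22.1 and 39.7 CPM to 108 and 94.0 CPM (log2 fold change 1.89, SE 0.53, adjusted p = 0.0493). In the list 9 genes were higher and 2 lower without overlap, with a median of 0.84. The list level was 5.24, 5.44 and 5.85 in the Braf libraries and 6.34 and 5.91 with Arid2 knockout. A high level was not particular to Arid2 knockout: with vehicle it was 5.89 to 6.14 with Arid1a knockout and 5.73 to 6.03 with Smarcb1 knockout. The median was 0.10 for Arid2 over Arid1a knockout, and -0.36 for Arid2 knockout over Braf under CKI. The phosphatase gene Dusp4 was at 13.8, 15.2 and 32.2 CPM against 86.2 and 52.7 CPM (1.77, adjusted p = 0.185) and Etv5, an ETS factor, at 18.8, 25.2 and 45.4 CPM against 93.5 and 60.2 CPM (1.37, adjusted p = 0.109). Dusp6, the ERK phosphatase, overlapped between groups (251, 284 and 617 CPM against 755 and 590 CPM, 0.81). A list of 13 genes induced by tissue dissociation, which shares Egr1 and Ier3 with the MAPK list, was higher too (levels 7.65, 8.21 and 8.81 against 9.05 and 9.16, median 1.07, none called). In the fit with that level as a covariate, which called 186 genes in all, Phlda1 was not called. The part of dissociation in these values cannot be told apart from genotype here.

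Ligands and developmental pathways changed in single genes. Wnt5a, a Wnt ligand, rose from 2.85, 6.62 and 9.43 CPM to 33.5 and 18.5 CPM (log2 fold change 2.04, adjusted p = 0.0386), and Sfrp1, a secreted Wnt inhibitor, fell from 3.67, 42.2 and 17.9 CPM to 1.38 and 1.002 CPM (-4.15, adjusted p = 0.0159). Over 16 Wnt genes tested these were the only calls, and the median was 0.999. Sfrp1 was highest in Braf replicate 4, as were the fibroblast markers. Neither Wnt5a nor Sfrp1 stayed called without that library or with the fibroblast level as a covariate. Lef1, a transcription factor of the pathway, was at 2.19, 4.19 and 10.02 CPM against 40.4 and 11.7 CPM (2.25, adjusted p = 0.0558).

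Among 17 growth factor ligands, Pdgfa rose (9.12, 9.15 and 19.4 CPM to 52.1 and 33.1 CPM, log2 fold change 1.76) and Igf1 and Hgf fell. Igf1, insulin-like growth factor 1, went from 79.5, 195 and 81.8 CPM to 12.5 and 11.1 CPM (-3.33, adjusted p = 0.0253), and Hgf, the Met ligand, fell by 3.51 on the log2 scale. Both are made largely by stromal cells, whose markers were lower in the same libraries. In the fit with the fibroblast level as a covariate, which called 78 genes in all, neither Igf1 nor Hgf was called. The part of stromal cells in the change cannot be told apart from genotype here. Cell cycle genes showed few calls: the helicase subunit Mcm6 rose (28.3, 23.1 and 49.2 CPM to 95.0 and 132 CPM, 1.76) as 1 of 20 DNA replication genes, Cdkn2c, a CDK inhibitor, fell by 1.26 as 1 of 17 G1 genes, and none of 20 mitosis genes was called (median -0.53). None of 11 keratins (median -1.14) and none of 11 Hippo pathway targets (0.61) was called.

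The same genotypes were also compared under CKI, with 2 Arid2-knockout and 3 Braf libraries that are not used in the vehicle comparison. There 241 genes (1.27%) were called, 67 (0.352%) higher and 174 (0.915%) lower. In all, 49 genes were called in both comparisons, 7.14% of the vehicle calls and 20.3% of the CKI calls, 45 of them in the same direction. A test of the difference between the 2 comparisons called 1647 genes (8.66%), but it rested on both Arid2-knockout CKI libraries, with 0 and 1 genes called without replicate 3 or replicate 4.

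The values of the vehicle calls under CKI are given side by side. Over all 19016 genes, 8489 had the same and 10312 the opposite direction in the 2 comparisons. Of the 243 genes called lower with vehicle, 216 were also lower with CKI, 38 of them called and none called the other way, and their median log2 fold change was -3.03 with vehicle and -1.81 with CKI. Of the 443 called higher with vehicle, 370 had the opposite direction with CKI (median 2.01 with vehicle and -0.93 with CKI). Only 7 were called higher in both, and 4 were called lower with CKI. The difference was called for 352 of the 443 rises and for 23 of the 243 falls, beside 1647 (8.66%) over all genes. It holds the vehicle values that chose these genes, so nothing is read from these counts.

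**Figure D4:**
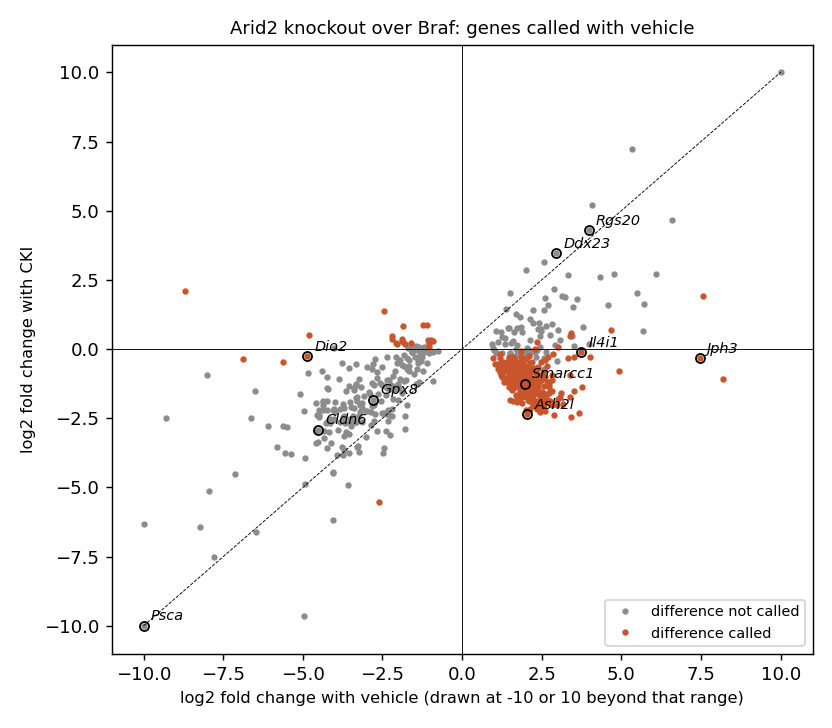
Each point is 1 of the 686 genes called with vehicle, with the log2 fold change of Arid2 knockout over Braf with vehicle on the x axis and with CKI on the y axis, and the dashed line marks equal values. The 243 falls spread along the lower left, where 216 were also lower with CKI, and most of the 443 rises lie below 0 on the y axis. Coloured points passed the test of the difference.

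Of the 16 genes described first, 8 were called in the same direction with CKI. Cldn6 was at 38.1, 48.0 and 50.6 CPM in Braf replicates 1, 4 and 5 with CKI and at 4.76 and 7.33 CPM in Arid2-knockout replicates 3 and 4 (log2 fold change -2.91, adjusted p = 0.00142). Ddx23 was at 5.78, 7.88 and 8.64 CPM against 84.9 and 78.6 CPM (3.46, adjusted p = 0.000275). Pm20d1 fell by 4.90 on the log2 scale with CKI (adjusted p = 2.38e-05), Gpx8 fell by 1.83, and Rgs20 rose by 4.31. Il4i1 overlapped between the genotypes with CKI, at 12.8, 32.1 and 21.8 CPM against 22.9 and 18.1 CPM (-0.12, adjusted p = 0.934).

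Genes called lower under both treatments, named here after that overlap was known, included several enzymes and secreted proteins. Gsn, the actin-severing protein gelsolin, was at 1357, 1670 and 2028 CPM against 396 and 290 CPM with vehicle (log2 fold change -2.30) and fell by 2.395 with CKI. Pthlh, the parathyroid hormone-like hormone, was at 2259, 696 and 1298 CPM against 405 and 449 CPM (-1.73) and fell by 2.01 with CKI. Phgdh, the first enzyme of serine synthesis, was at 74.6, 70.8 and 74.4 CPM against 14.6 and 25.2 CPM (-1.88), and it fell by 1.59 with CKI. Gpx7, the closest relative of Gpx8, was at 29.1, 35.004 and 26.8 CPM against 2.95 and 2.35 CPM (-3.51) and fell by 2.65 with CKI. In these genes the 2 groups did not overlap under vehicle, and the Braf libraries were within a few fold of each other.

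The genes called in opposite directions were Ash2l, Tdp2, Mapkap1 and Lpcat4. Ash2l, a subunit of histone H3 lysine 4 methyltransferase complexes, was at 15.1, 11.1 and 34.3 CPM against 86.0 and 80.9 CPM with vehicle, and at 107, 107 and 44.6 CPM against 15.3 and 18.4 CPM with CKI. Braf libraries with CKI and Arid2-knockout libraries with vehicle were the high ones, and the other 2 groups were low.

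The mean level of the called genes was also taken in every library. For the 443 genes called higher, the mean of log2(CPM + 1) was 2.86, 2.86 and 3.55 in the Braf vehicle libraries and 5.02 and 4.86 with Arid2 knockout, values which the choice of genes fixes. In libraries that did not choose them it was 4.17 to 4.65 in Braf with CKI, 3.71 and 3.98 in Arid2 knockout with CKI, 3.66 to 4.10 with Arid1a knockout, 3.72 to 4.59 with Smarcb1 knockout and 3.13 to 3.66 in wild type. The 243 genes called lower were at 2.86 and 2.87 in Arid2 knockout with CKI and at 3.86 to 4.23 in Braf with CKI. With vehicle they were at 3.52 to 3.71 with Arid1a knockout and at 3.10 to 3.44 with Smarcb1 knockout, both below the 4.05 to 4.94 of the Braf libraries that helped choose the genes, and wild-type thyroid had 4.09 to 4.42.

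**Figure D5:**
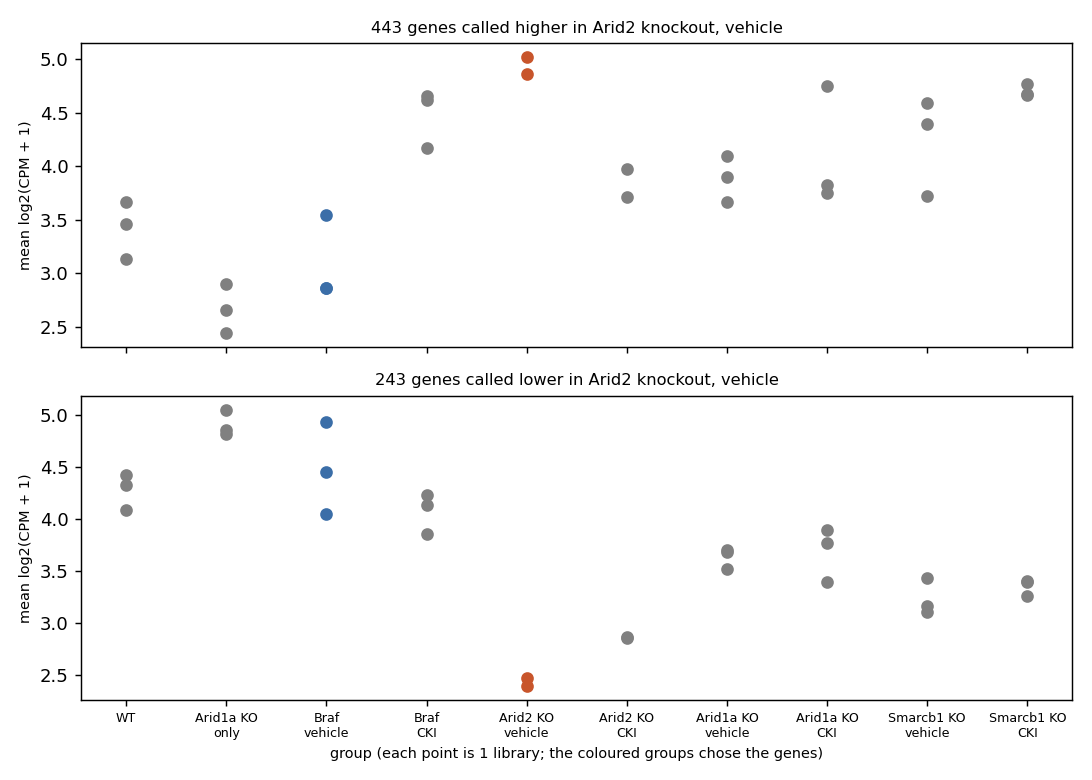
Points are libraries, with the mean log2(CPM + 1) of the 443 genes called higher (top) and the 243 called lower (bottom) on the y axis and the groups on the x axis. The coloured vehicle groups chose the genes. Braf with CKI (4.17 to 4.65, top) lies above Arid2 knockout with CKI (3.71 and 3.98), the opposite order to vehicle, while in the bottom panel both treatments have Arid2 knockout lower.

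Set directly against the other knockouts, which share the Arid2-knockout vehicle libraries with the comparison above, Arid2 knockout differed from Arid1a knockout in 1136 genes (5.97%), 653 (3.43%) higher and 483 (2.54%) lower. It differed from Smarcb1 knockout in 3160 genes (16.6%), 1718 (9.03%) higher and 1442 (7.58%) lower. Cldn6 was at 186 to 218 CPM with Arid1a knockout (Arid2 over Arid1a knockout -5.86 on the log2 scale, adjusted p = 2.58e-07) and at 2.32 to 6.01 CPM with Smarcb1 knockout (-0.42, adjusted p = 0.515). Pm20d1 was likewise low with Smarcb1 knockout, at 3.19 to 5.03 CPM (-0.72, adjusted p = 0.255). Gpx8 was not, at 124 to 187 CPM (-3.65, adjusted p = 7.8e-07), and Ddx23 was higher with Arid2 knockout than with Arid1a knockout (2.85, adjusted p = 0.000302) and Smarcb1 knockout (2.77, adjusted p = 0.000138).

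Against Arid1a knockout the largest higher genes included Stmn2, at 144 and 87.1 CPM against 0.381 to 1.06 CPM (7.39, adjusted p = 2.58e-07), and Abcb1a, a drug efflux transporter, at 72.7 and 40.6 CPM against 0.127 to 0.546 CPM (7.18, adjusted p = 2.38e-06). The largest lower ones included Psca, Grp, the gastrin-releasing peptide (0.0729 and 0.154 CPM against 35.9 to 83.6 CPM), and the fibrinogen gene Fgg (0.292 and 0.308 CPM against 45.0 to 105 CPM). Against Smarcb1 knockout the largest lower genes included Crabp1, a retinoic acid binding protein with 0.0364 and 0.077 CPM against 994 to 5108 CPM, with Lhx9, a LIM homeobox factor, and Fgf15 at 0 in both Arid2-knockout libraries. Nefl was at 26.8 to 47.7 CPM in the Smarcb1-knockout libraries (-2.56 on the log2 scale, adjusted p = 0.0656) and at 0 to 0.576 CPM in those of Arid1a knockout (4.52, adjusted p = 0.00644).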

How the data were processed

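The deposited table holds read counts per gene, whole numbers with no normalization, for mouse thyroid RNA-seq libraries made with a TruSeq RNA kit, per the labels. Strand is not stated there, so overlapping and antisense genes cannot be separated. STAR 2.4, HTSeq 0.6.1, DESeq2 and the build mm9 are named, with no role given, per the submitters' processing notes. The labels list 30 samples in 10 groups and 28 were analysed here, with replicate 1 of Arid2 knockout with vehicle and replicate 2 with CKI not analysed here, so each group held 2 libraries. Groups and replicate numbers came from titles.

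From these counts, filterByExpr kept 19016 genes, and edgeR 4.0.16 (R 4.3.3) was fitted to all 28 libraries by group with TMM scaling and the quasi-likelihood test, with Benjamini-Hochberg adjustment and a threshold of 0.05. The fit over all groups lets every library inform the spread. SE is the log2 fold change divided by the root of F. In simulated data of this comparison over 19016 genes, 2 of 50 genes changed 2-fold, 32 of 50 changed 4-fold, 42 of 50 changed 8-fold and 47 of 50 changed 16-fold were recovered. Of 18816 unchanged genes 5 were called, and 2-fold changes were mostly out of reach. Each gene was drawn independently with its spread over the 28 libraries, and changed genes averaged 5 CPM or more in Braf with vehicle. The simulation holds no shift in cell content shared between genes, so it gives no error rate for the real calls. Replicates differed beyond sampling noise and each was counted once.

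Genes were named by rule: SWI/SNF subunits, the 10 largest rises and 10 largest falls without overlap and with the higher group averaging 5 CPM or more (predicted genes, -ps genes, antigen receptor segments, histone clusters and mitochondrial genes left out), up to 6 called and 6 other members per list, and the 5 largest each way against the other knockouts. The members, lists and named genes were chosen with earlier results of these data known. The test of the difference between vehicle and CKI, the fibroblast covariate, the correction for GC and length, and leaving out the libraries with Xist and Y-linked transcripts were chosen after seeing the data. Alternatives were RLE scaling, no filter, DESeq2 1.42.0, fewer groups in the fit, a replicate block, marker levels as covariates, and leaving out each library.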

Additional observations from a re-analysis of the deposited data

Results flagged for a closer look

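Among the named genes called with vehicle, 17 had a difference between the vehicle and CKI comparisons past the threshold of edgeR's test (adjusted p from 0.0123 to 0.0459). The difference holds the vehicle values that chose these genes, so nothing is read from the number or size of these calls. These calls rest on both Arid2-knockout CKI libraries, since without replicate 3 or replicate 4 only 0 and 1 genes of the whole table were called. Values are vehicle log2 fold change minus CKI log2 fold change. The largest were Jph3 at 7.79, Nefl at 5.67 and Mmp28 at 5.03. The 4 genes with opposite calls had 4.41 (Ash2l), 3.63 (Lpcat4), 3.49 (Mapkap1) and 3.35 (Tdp2). Further genes higher with vehicle had 4.32 (Aplp1), 3.98 (Trim9), 3.86 (Il4i1), 3.22 (Smarcc1), 2.94 (Mcm6), 2.70 (Phlda1) and 2.65 (Pdgfa). Dio2 at -4.61 and Isg15 at -2.27 were called lower with vehicle and were not called with CKI. Gria3 at 2.92 fell in both and more with CKI.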

How the results depend on the processing

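The count of calls depended strongly on which libraries entered. Of the 92 called genes named, 90 kept their direction in all 16 alternatives. The alternatives refit the libraries that chose these genes, so a kept direction is close to fixed in advance and nothing is read from it. Of the same 92 genes, 10 stayed called with each of the 5 libraries left out, and 1 (Gm9000) stayed called throughout. Against 686 calls (443 higher, 243 lower), DESeq2 gave 2120 (1126 and 994), only the 5 libraries 2 (0 and 2), and only the vehicle groups 10 (2 and 8). Leaving out 1 library gave 38 to 873 (21 to 593 higher, 11 to 280 lower). With leukocyte level as a covariate it was 100 (54 and 46), with dissociation stress level 186 (102 and 84) and with fibroblast level 78 (25 and 53). The GC and length correction gave 677 higher, and without the libraries with both Xist and Y-linked transcripts 453 were called, 59 of them lower. For Arid2 against Arid1a knockout (1136) DESeq2 gave 2030, and leaving out 1 library 245 to 947. For Arid2 against Smarcb1 knockout (3160) only those groups gave 1511, and leaving out 1 library 1491 to 3212. Under CKI (241) DESeq2 gave 1941, only those groups 1253, and leaving out 1 library 14 to 230. For the difference (1647) DESeq2 gave 2949, and leaving out 1 library 0 to 2050. RLE scaling and no filter stayed within 1.5 times of each main count. Replicate numbers 2 and 4 occur in both vehicle groups, but the labels do not say that they pair samples, and deviations of same-numbered libraries correlated at -0.42 and -0.35. A replicate block gave 988 calls, 745 higher, with 623 of the 686 among them, and it gave 675 against Arid1a knockout and 78 under CKI. C1qtnf3 turned to 0.55 with the fibroblast covariate, and H2-Ea-ps went to 0 without Arid2-knockout replicate 4 and without the Xist and Y libraries, against 13.8 without replicate 2. The cause of these moves was not tested.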

Other observations

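The following genes were noted after their values were seen. Among abundant genes called higher were Jak1 (log2 fold change 1.51) and Stat3 (1.48), a kinase and a transcription factor of cytokine signalling, while 3 interferon-stimulated genes downstream of that pathway were called lower. Aldh2, the mitochondrial aldehyde dehydrogenase, rose by 1.92 on the log2 scale. Gsta4, a glutathione transferase and the 1 called gene of 13 NRF2 targets, and Foxj1, the factor of ciliated cells and the 1 called gene of 8 cartilage and ciliated airway markers, were both higher. Dpp7, a lysosomal dipeptidyl peptidase, was at 21.1, 49.2 and 30.3 CPM against 5.10 and 7.203 CPM (-2.45, adjusted p = 0.0018) and fell by 3.58 with CKI. Eno2, the neuron-specific enolase, fell (14.5, 10.3 and 13.0 CPM to 3.24 and 1.35 CPM, -2.45), while the neuronal genes Nefl, Jph3, Nrsn1 and Stmn2 rose in the same libraries.

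Cdca7l, a Myc-interacting nuclear protein, rose under both treatments (1.49 with vehicle and 2.03 with CKI), and with CKI it was at 59.9 and 63.9 CPM in the Arid2-knockout libraries against 14.7 to 15.9 CPM in Braf. Gria3, a glutamate receptor subunit, fell under both (-2.60 and -5.52). Called genes differed little from the rest in base composition: the median GC content was 52.0% for genes called higher, 49.8% for those called lower and 49.7% for all genes tested, with a value for 88.7% of them. Median transcript length was 3400 bases for genes called higher and 2427 bases for those called lower, against 3007 bases over all. The pseudogene H2-Ea-ps was at 0 counts in the 3 Braf libraries and in Arid2-knockout replicate 2 and at 60.2 CPM in replicate 4, at least 710-fold above the floor of 3 counts over the group.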
